A study of Homo sapiens with 6 samples.

Results

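*HSPA2*, an HSP70 gene best known from the testis, was expressed about 10.01-fold higher in TC28a2 cells treated with mocetinostat than in DMSO-treated cells. The abundant cytosolic chaperones that all cells use were lower with TMM scaling of the libraries (trimmed mean of M values, which takes most genes as unchanged). With libraries scaled to *GAPDH*, their median log2 fold change was 0.031, below the 0.53 of all genes tested. The values below describe the heat shock proteins and chaperones of these cells. They comprise the HSP70 and HSP110 (*HSPA* genes and *HSPH1*), HSP90, small HSP (*HSPB*), and DNAJ families, the mitochondrial chaperonin (*HSPD1*, *HSPE1*), the TRiC chaperonin (*TCP1* and the *CCT* genes), the heat shock factors *HSF1*, *HSF2*, and *HSF4*, and *BAG1* to *BAG6*. Members were chosen by gene symbol alone. The rule found 91 rows with 90 gene names among the 60623 genes of the count table. The name *HSPA14* stands on 2 rows, ENSG00000187522 and ENSG00000284024.

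TC28a2 is an immortalized line of human chondrocytes, the cells of cartilage, and mocetinostat is an inhibitor of class I histone deacetylases, the enzymes that remove acetyl groups from histones. RNA-seq was performed on 3 samples treated with DMSO, the solvent, and 3 samples treated with mocetinostat. The study's methods give a dose of 2 µM for 24 hours, and all 6 samples are of this 1 cell line with no other treatment. The line is a model of chondrocytes only in part. Of 12 cartilage markers, *COL11A1*, *COL9A1*, *PRG4*, and *SOX6* were too low to be tested, and *COL2A1* was at 2.20 ± 0.683 CPM (normalized counts per fixed library total; SD, n = 3) under DMSO, while *SOX9* was present in all samples. Summed over the 12 markers, the level was 117 to 142 CPM with DMSO and 265 to 307 CPM with mocetinostat. The part of these markers in the results below was not tested.

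Chaperones bind unfolded proteins and help them reach or keep their shape. HSP70 proteins do so in cycles of ATP binding and hydrolysis that DNAJ (HSP40) proteins start and that exchange factors such as the BAG and HSP110 proteins end. HSP90 proteins act later, on kinases and hormone receptors among others, and the chaperonins enclose a client in a chamber. Each compartment has its own set, such as HSPA8 in the cytosol, HSPA5 (BiP) in the endoplasmic reticulum (ER), and HSPA9 in mitochondria. Upon heat or proteotoxic stress HSF1 turns on many of these genes, while the unfolded protein response controls those of the ER.

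Genes with an adjusted P value below 0.05 in edgeR's quasi-likelihood test and a log2 fold change above 1 or below −1 are called upregulated or downregulated genes (URGs or DRGs). "Rose" and "fell" are used for an adjusted P value below 0.05 at any size. Of the 91 rows, 77 were abundant enough to be tested. Among these, 9 were URGs and 9 were DRGs, or 11.7% each. Of all 13966 genes tested, 20.2% were URGs and 8.18% were DRGs. At any size, 16 members rose, against 32.9% of all genes tested, and 39 members fell, against 31.4% of all genes tested. The remaining 22 passed in neither direction. Members that rose were 20.8% and members that fell 50.6% of those tested. The median log2 fold change of the members tested was −0.34 and that of all genes tested was −0.0021. All 3 mocetinostat samples lay above all 3 DMSO samples for 15 members, against 33.7% of all genes tested, and below them for 43 members, against 32.8% of all genes tested.

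These directions depend on how libraries are scaled. *GAPDH*, a glycolytic enzyme often used for scaling, was itself lower with mocetinostat (log2 fold change −0.53 ± 0.059 SE, adjusted P = 2.58e-12). With libraries scaled to *GAPDH*, the median of all genes tested moved to 0.53, 34 members rose and 11 fell, with 13 URGs and 0 DRGs. Of all 13966 genes tested, 7710 rose and 1371 fell with this scaling, with 4425 URGs and 284 DRGs. Counts of members and lists under this scaling, here and below, are to be read beside these. Log2 values under this scaling are to be read against 0.53, not against 0. The members took 1.86% to 1.90% of all counts in the DMSO samples and 1.54% to 1.66% in the mocetinostat samples. In a cell population, fewer cells of a kind and less RNA per cell cannot be told apart.

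**Figure D1:**
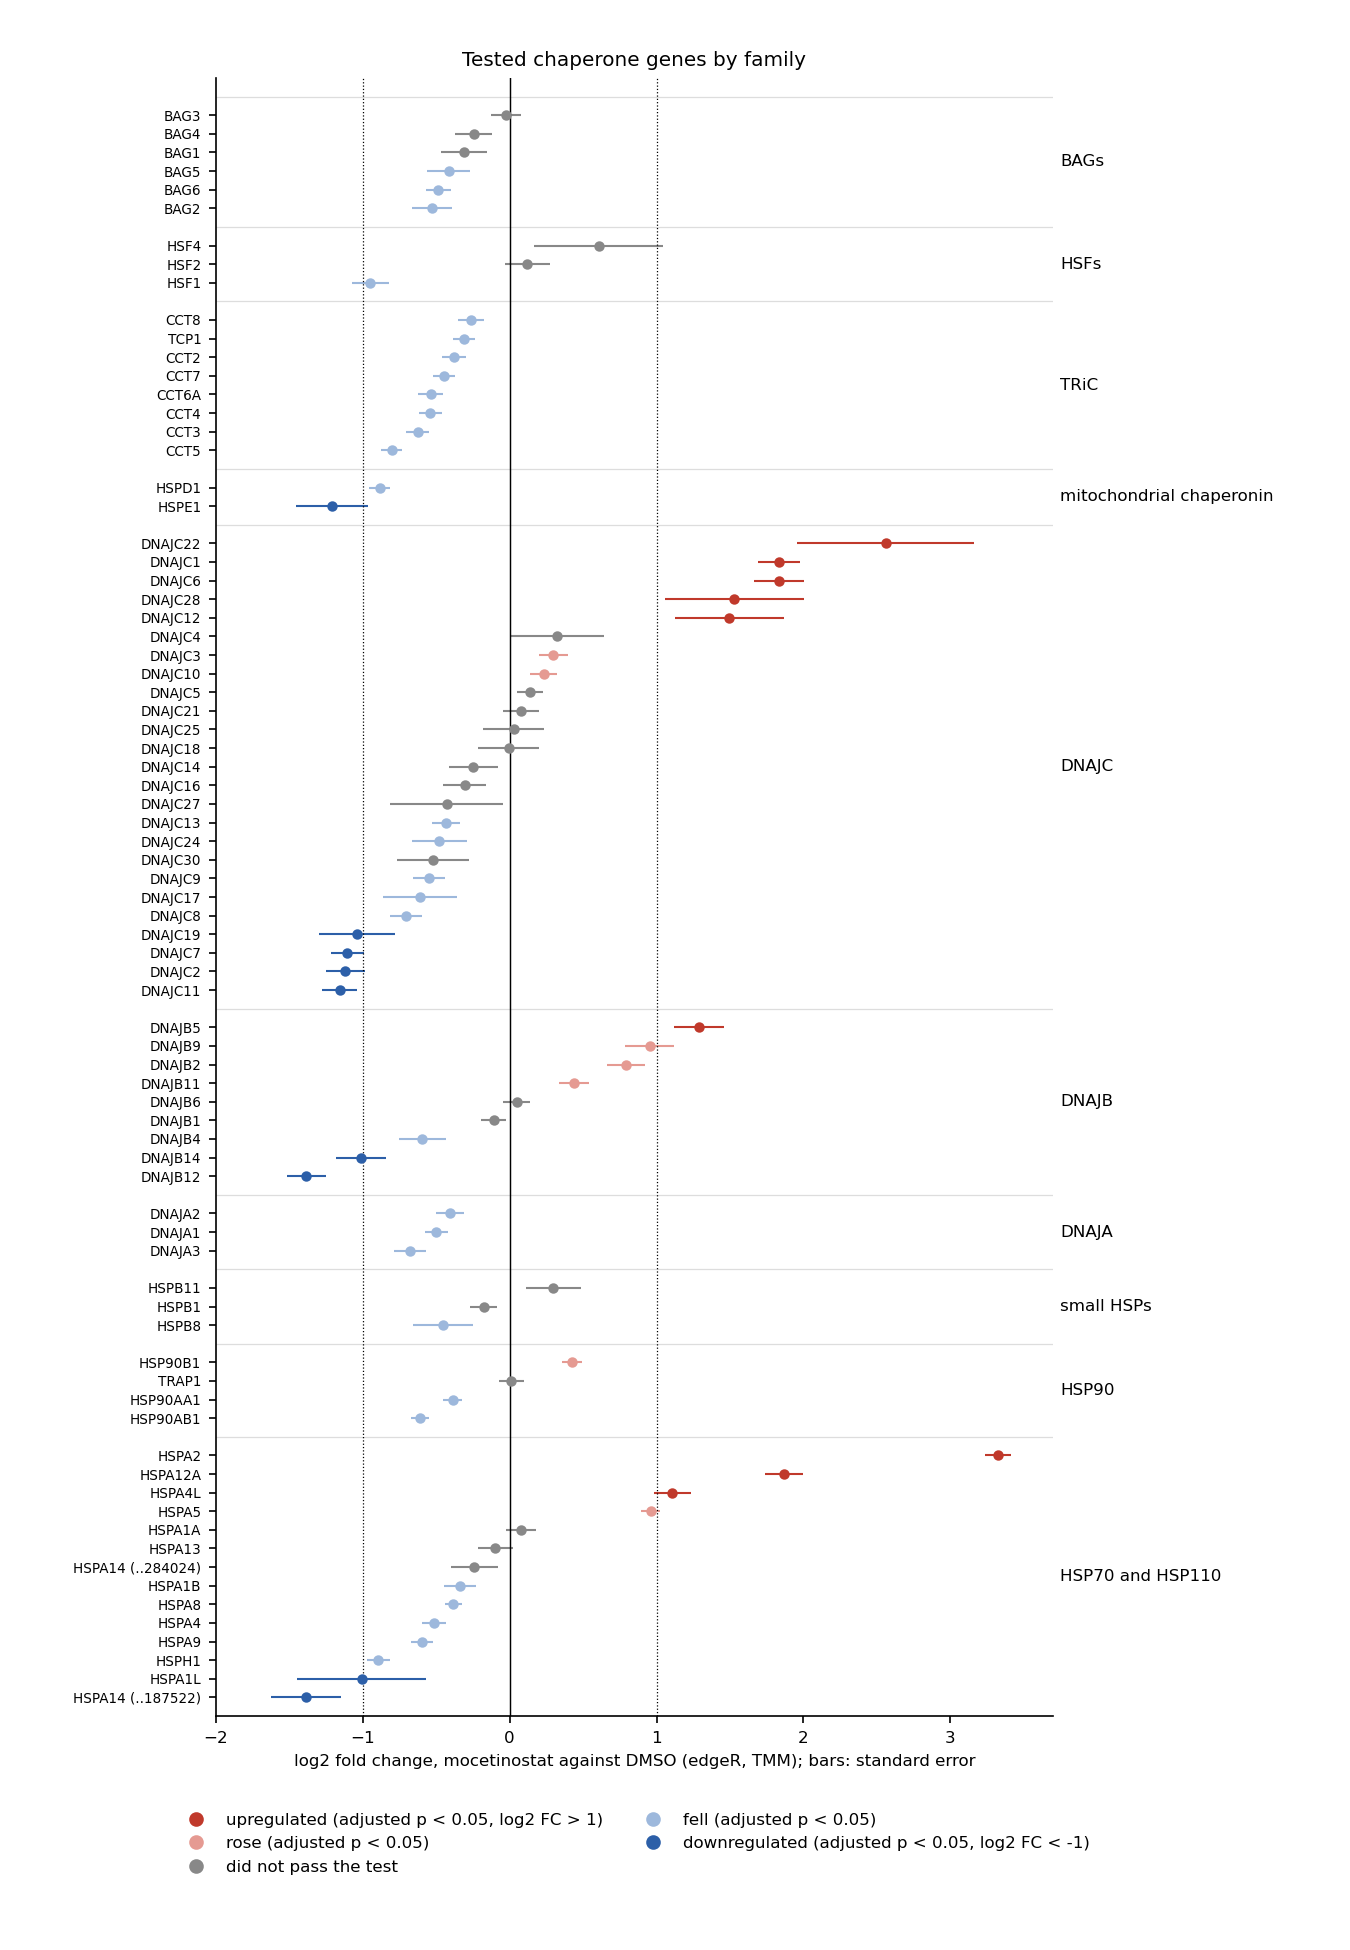
Log2 fold change of the 77 tested rows, mocetinostat against DMSO (x axis, edgeR with TMM scaling), grouped by family on the y axis. Points are estimates from 3 against 3 samples, bars are standard errors, dotted lines mark −1 and 1, and colors give the outcome of the test. *HSPA2* stands at 3.32, and the points of all 8 TRiC genes lie between −0.80 and −0.26.

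HSPA2 is made in large amounts in male germ cells, where it is needed for meiosis, and at lower levels elsewhere. The gene (ENSG00000126803, protein coding) lies on the plus strand of chromosome 14, from 64535905 to 64546173 on GRCh38. *HSPA2* was at 48.9, 53.1, and 54.5 CPM in the DMSO samples and at 512, 522, and 528 CPM in the mocetinostat samples, from 255 to 541 counts and from 843 to 2584 counts per sample. The groups are far apart, and the 3 samples of each differ by little. The log2 fold change was 3.32 ± 0.089 (SE), with an adjusted P value of 5.31e-45 in edgeR's quasi-likelihood test. By P value *HSPA2* took place 3 among the 13966 genes tested, and by size of increase place 795. Over 14 alternative settings its log2 fold change lay between 3.07 and 3.85, and the highest adjusted P value was 4.64e-24. No 100-base window of its canonical transcript occurred in a transcript of another gene (0%). This gene's large change was known when the members were chosen.

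HSPA8 (HSC70) is the constitutive HSP70 of the cytosol. *HSPA8* was at 2874, 2830, and 2775 CPM with DMSO and at 2226, 2060, and 2215 CPM with mocetinostat. All mocetinostat samples were below all DMSO samples, with a log2 fold change of −0.38 ± 0.059 (SE, adjusted P = 4.57e-08). Scaled to *GAPDH* the value turned to 0.15 and no longer passed (adjusted P = 0.1). The ratio of *HSPA2* to *HSPA8* within a sample needs no scaling between libraries. Per kilobase of exon, *HSPA2* stood at 0.0150, 0.0165, and 0.0173 of *HSPA8* with DMSO and at 0.203, 0.223, and 0.210 with mocetinostat. The ratios of the groups do not overlap, and the ratio was 13.04-fold higher with mocetinostat (3.71 on the log2 scale). An exact two-sided permutation test over samples gave P = 0.1, the smallest value that 3 against 3 samples allow. *HSPA2* was chosen with its change known, so this P value adds no support and the ratios are a description.

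HSPA5, or BiP, is the HSP70 of the ER lumen. *HSPA5* was at 793, 784, and 788 CPM with DMSO and at 1563, 1452, and 1584 CPM with mocetinostat. The DMSO samples differed by less than 10 CPM, and each mocetinostat sample was well above them. The log2 fold change was 0.96 ± 0.065 (SE, adjusted P = 8.65e-22), just under the threshold for a URG. Scaled to *GAPDH*, or with counts thinned to the smallest library, *HSPA5* passed that threshold.

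The stretch of 250 bases before the transcription start of these 3 genes is shown because they share a family and moved by different amounts. The sequences come from RefSeq (GRCh38.p14) and run 5′ to 3′ on the strand of the gene. That of *HSPA2* is chr14:64540491-64540740 (plus strand), that of *HSPA8* is chr11:123062137-123062386 (minus strand), and that of *HSPA5* is chr9:125241344-125241593 (minus strand). The start of *HSPA2* here is that of its canonical transcript, which lies within the annotated gene. Capitals mark the motifs searched on both strands, namely the heat shock element of 3 units (TTC and GAA in turn, beginning with either, with NN between units), the CCAAT box (CCAAT), and the GC box (GGGCGG). None of the matches in these 3 sequences overlap.
HSPA2: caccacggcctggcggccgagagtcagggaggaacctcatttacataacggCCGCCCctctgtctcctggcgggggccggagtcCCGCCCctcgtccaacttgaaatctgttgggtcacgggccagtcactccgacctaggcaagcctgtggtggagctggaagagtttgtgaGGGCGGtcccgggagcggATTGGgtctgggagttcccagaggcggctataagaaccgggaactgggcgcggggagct
HSPA8: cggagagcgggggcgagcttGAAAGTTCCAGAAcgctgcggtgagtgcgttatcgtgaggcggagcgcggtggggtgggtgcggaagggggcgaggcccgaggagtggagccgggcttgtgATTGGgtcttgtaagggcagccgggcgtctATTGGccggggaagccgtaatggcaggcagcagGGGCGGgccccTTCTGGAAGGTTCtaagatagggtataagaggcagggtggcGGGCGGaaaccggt
HSPA5: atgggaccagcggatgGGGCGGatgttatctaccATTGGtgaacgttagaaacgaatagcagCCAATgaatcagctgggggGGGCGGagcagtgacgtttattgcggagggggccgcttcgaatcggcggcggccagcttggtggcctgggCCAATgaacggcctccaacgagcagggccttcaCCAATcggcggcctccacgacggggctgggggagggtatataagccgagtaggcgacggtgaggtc

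The *HSPA2* stretch holds 0 heat shock elements, 1 CCAAT box, and 3 GC boxes, and that of *HSPA8* holds 2 of each motif. The *HSPA5* stretch holds 0 heat shock elements, 4 CCAAT boxes, and 2 GC boxes. Of all 35116 RefSeq promoters, 0.441% hold at least 1 such heat shock element, 32% at least 1 CCAAT box, and 42.6% at least 1 GC box. A promoter was matched to 80 members. Among these, 5 (6.25%) hold a heat shock element (*HSPA6*, *HSPA8*, *HSP90AA1*, *HSPD1*, and *DNAJB6*), 30 (37.5%) a CCAAT box, and 56 (70%) a GC box. A CCAAT box is present in 10 of 14 promoters of members that rose and in 9 of 35 promoters of members that fell. A heat shock element is present in 0 of these 14 and in 3 of these 35. These are matches of letters, and no test was made of them. The exact pattern is also absent from the promoters of *HSPA1A*, *HSPA1B*, *HSPH1*, *DNAJB1*, *BAG3*, and *HSPB1*, which are on the list of known HSF1 targets used below. A promoter without a match, such as that of *HSPA2*, is thus not shown to lack a heat shock element.

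Beside *HSPA2*, the HSP70 and HSP110 family had 2 other URGs. HSPA12A is an atypical HSP70, and *HSPA12A* was at 24.7, 22.7, and 29.0 CPM with DMSO and at 89.4, 91.7, and 99.5 CPM with mocetinostat. The groups do not overlap (log2 fold change 1.87 ± 0.13 SE, adjusted P = 4.23e-21), and 8% of the windows of its transcript are shared with its antisense gene *HSPA12A-AS1*. HSPA4L is an HSP110 protein found mainly in the testis, and *HSPA4L* was at 39.4, 38.7, and 32.7 CPM with DMSO and at 85.0, 74.4, and 77.9 CPM with mocetinostat. Again no mocetinostat sample overlapped a DMSO sample (1.11 ± 0.13 SE, adjusted P = 6.32e-12).

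In the same family 7 of 14 tested rows fell and 4 rose, with a family median of −0.29. These are 50% and 28.6%, against 31.4% and 32.9% of all genes tested. Of the 14 rows, 11 were among the 4656 genes with the highest mean level. Of those 4656 genes, 50% fell and 25.1% rose, so the family lay near that share. With *GAPDH* scaling 2 fell and 6 rose, and the median was 0.25 against 0.53 for all genes tested. HSPH1, the inducible HSP110 of the cytosol, had 457, 459, and 416 CPM with DMSO and 238, 234, and 244 CPM with mocetinostat. *HSPH1* thus fell in each treated sample (−0.90 ± 0.079 SE, adjusted P = 1.9e-16). *HSPA9* (mortalin, the HSP70 of mitochondria) was at 576, 577, and 613 CPM and at 402, 379, and 386 CPM, and fell by 0.60 on the log2 scale. *HSPA4*, an HSP110 protein of the cytosol, fell by 0.52, and neither group of samples overlapped the other for *HSPA9* or *HSPA4*.

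*HSPA1A* and *HSPA1B* encode the stress-inducible HSP70. *HSPA1A* was at 102, 117, and 128 CPM with DMSO and at 122, 120, and 123 CPM with mocetinostat, which lie within the range of the DMSO samples (0.076 ± 0.10 SE, adjusted P = 0.53). *HSPA1B* was at 108, 107, and 107 CPM with DMSO and at 82.7, 85.5, and 87.9 CPM with mocetinostat (−0.34 ± 0.11 SE, adjusted P = 0.0044), and with counts thinned to the smallest library it did not pass (−0.20, adjusted P = 0.16). The genes are near copies: 72.4% of the 100-base windows of *HSPA1A* and 72.8% of those of *HSPA1B* occur in other genes, so the division of reads between them is uncertain. Summed into 1 gene they did not pass (−0.11, adjusted P = 0.26). *HSPA6*, which is nearly silent without stress, had 9, 2, and 26 reads with DMSO, against 6, 2, and 2 with mocetinostat, and was not tested. In these libraries of unequal depth that is 1.69 ± 1.87 and 1.09 ± 0.224 CPM (SD, n = 3).

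*HSPA14*, on the row ENSG00000187522, was at 23.0, 19.2, and 19.9 CPM with DMSO and at 6.15, 11.2, and 8.70 CPM with mocetinostat. The protein is the ribosome-associated HSP70, and the gene was a DRG with the lowest value of its family (−1.38 ± 0.24 SE, adjusted P = 5.76e-07). The row ENSG00000284024 had −0.24 (adjusted P = 0.19), and release 44 of GENCODE gives it the name MSANTD7. *DNAJC2*, whose protein pairs with HSPA14 at the ribosome, was likewise a DRG, at 73.6, 74.1, and 82.5 CPM with DMSO and at 36.3, 37.2, and 32.3 CPM with mocetinostat (−1.12 ± 0.13 SE, adjusted P = 1.72e-11). Of the windows of *DNAJC2*, 15.2% are shared with other genes, mainly *PMPCB* on the opposite strand. *HSPA1L*, another testis gene, had 47, 26, and 37 reads in the DMSO samples, against 11, 5, and 6 in the mocetinostat samples, in libraries of unequal depth. It was a DRG with an adjusted P value of 0.039, but it did not pass in DESeq2 (adjusted P = 0.16) or without DMSO replicate 2 or 3 or mocetinostat replicate 1 or 3.

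**Figure D2:**
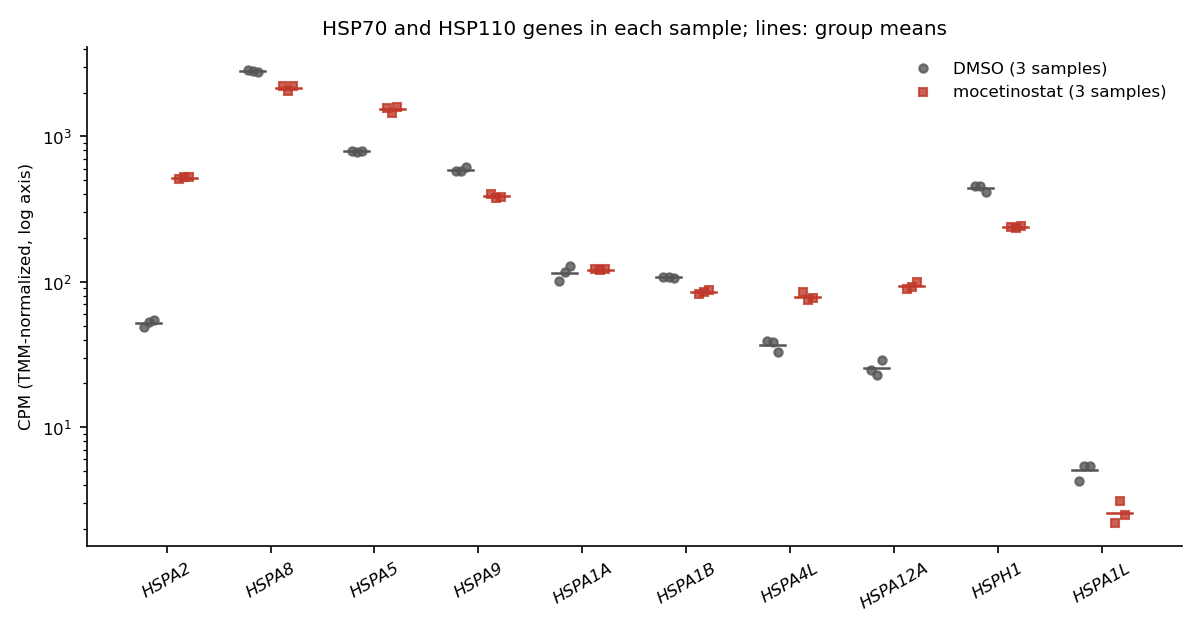
TMM-normalized CPM (y axis, log scale) of 10 HSP70 and HSP110 genes in each sample. Gray circles are the 3 DMSO samples, red squares the 3 mocetinostat samples, and lines the group means. *HSPA2* moves from a mean of 52.2 to a mean of 521 CPM, while the *HSPA8*, *HSPA9*, and *HSPH1* means move down. Levels on this axis are not per length.

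The summed level of the HSP70 and HSP110 genes was 5426 to 5513 CPM with DMSO and 5377 to 5699 CPM with mocetinostat, so the totals of the groups overlapped while the make-up differed. Per kilobase of exon, *HSPA2* was 0.979%, 1.07%, and 1.10% of the HSP70 genes (*HSPH1*, *HSPA4*, *HSPA4L*, and *HSPA12A* not included) with DMSO and 9.84%, 10.6%, and 10.1% with mocetinostat. *HSPA5* was 13.4% in each DMSO sample and 25.3%, 24.8%, and 25.6% in the mocetinostat samples. *HSPA8* was 65.3%, 65.0%, and 63.7% with DMSO and 48.5%, 47.3%, and 48.3% with mocetinostat. *HSPA9* had shares of 6.49% to 6.97% with DMSO and of 4.17% to 4.34% with mocetinostat. Per kilobase of the canonical transcript, *HSPA2* had a mean level of 20.9 CPM with DMSO, below *HSPA8* (1248), *HSPA5* (201), *HSPA9* (134), and *HSPH1* (84.7). With mocetinostat its level per kilobase was 209 CPM, below *HSPA8* (957) and *HSPA5* (391) and above *HSPA9* (88.3).

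**Figure D3:**
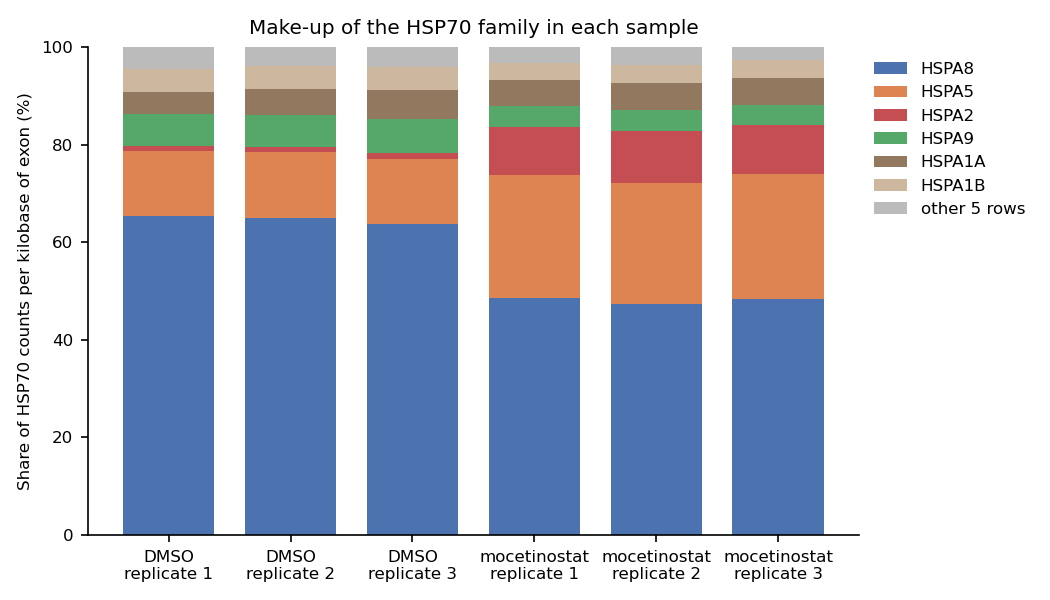
Share of each gene in the HSP70 counts per kilobase of exon (y axis, percent) in each of the 6 samples (x axis). The *HSPA2* band widens from about 1.07% to about 10.1% and the *HSPA5* band from 13.4% to about 25.3%, while the *HSPA8* band narrows from about 65.0% to about 48.3%.

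The 15 chaperones of the cytosol listed as housekeeping all fell with TMM scaling. They are *HSPA8*, *HSPA4*, both cytosolic HSP90 genes, *DNAJA1*, *DNAJA2*, *DNAJC7*, and the 8 TRiC genes. Their median log2 fold change was −0.50, and their summed level was 11349 to 11543 CPM with DMSO and 7722 to 8457 CPM with mocetinostat. Against *GAPDH*, 2 rose and 2 fell, and the median of 0.031 lay below the 0.53 of all genes tested. Among the 4656 genes with the highest mean level in all of the data, 50% fell and 25.1% rose. Of the 47 tested members in that range, 28 fell and 9 rose.

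HSP90 proteins of the cytosol are HSP90AA1 (inducible) and HSP90AB1 (constitutive). *HSP90AB1* was at 2104, 2125, and 2240 CPM with DMSO and at 1460, 1365, and 1403 CPM with mocetinostat (−0.61 ± 0.062 SE, adjusted P = 4.61e-14). *HSP90AA1* was at 1805, 1765, and 1709 CPM with DMSO and at 1362, 1202, and 1467 CPM with mocetinostat (−0.39 ± 0.065 SE, adjusted P = 3.41e-07). In both genes every treated sample was below every control sample. Scaled to *GAPDH*, the values were −0.085 and 0.14, and neither passed. *TRAP1*, the HSP90 of mitochondria, had 209, 226, and 244 CPM and 231, 238, and 214 CPM, with overlapping groups (0.011 ± 0.086 SE, adjusted P = 0.92). Of its windows, 13.3% are shared with *DNASE1* on the opposite strand.

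TRiC, a double ring of different subunits in the cytosol, folds actin and tubulin. Its 8 genes fell from −0.26 (*CCT8*) to −0.80 (*CCT5*), and their summed level was 3655, 3576, and 3649 CPM with DMSO and 2530, 2361, and 2597 CPM with mocetinostat. *TCP1* was at 495, 455, and 433 CPM with DMSO and at 380, 358, and 375 CPM with mocetinostat (−0.31 ± 0.076 SE, adjusted P = 2.52e-04). Of its windows, 15.8% are shared with *ACAT2* on the opposite strand. *CCT5* was at 959, 1008, and 1055 CPM and at 581, 524, and 622 CPM (adjusted P = 1.71e-16), but 51.2% of the windows of its transcript are shared with an overlapping gene. With *GAPDH* scaling 2 of the 8 rose and 1 fell, and their median was 0.038.

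Most of the listed members of mitochondria that were tested fell. This list of 9 genes was drawn up after their values were seen and may not hold every such member. *DNAJC4* (0.32, adjusted P = 0.39) and *DNAJC28* (1.53, a URG) were not on it. Of the 8 listed genes tested, 6 fell and 0 rose, with a median of −0.78. With TMM scaling 31.4% of all genes tested fell and 32.9% rose. Against *GAPDH*, 3 fell and 1 rose, and the median was −0.25. HSPD1 (HSP60) and HSPE1 (HSP10) form the chaperonin of the mitochondrial matrix. *HSPD1* was at 871, 812, and 822 CPM with DMSO and at 454, 421, and 480 CPM with mocetinostat (−0.88 ± 0.072 SE, adjusted P = 4.95e-18). *HSPE1*, a DRG, was at 29.4, 17.9, and 13.7 CPM with DMSO and at 7.53, 9.30, and 11.2 CPM with mocetinostat (−1.21 ± 0.25 SE, adjusted P = 1.84e-05). DMSO replicate 1 was the highest, and leaving it out moved the value to −0.81. Of the windows of *HSPE1*, 31.7% are shared with other genes, mainly the read-through gene *HSPE1-MOB4*.

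*DNAJC11*, a protein of the mitochondrial membranes, was a DRG with 105, 125, and 122 CPM with DMSO and 57.9, 52.7, and 45.2 CPM with mocetinostat (−1.16 ± 0.12 SE, adjusted P = 9.44e-14). It shares 42.5% of its windows with *THAP3* on the opposite strand, and how strand was treated in counting is not given in the sources used here. *DNAJC19*, of the inner mitochondrial membrane, was at 19.4, 13.7, and 12.2 CPM with DMSO and at 7.73, 8.68, and 6.22 CPM with mocetinostat (−1.04 ± 0.26 SE, adjusted P = 3.5e-04). It did not keep a log2 fold change below −1 without DMSO replicate 1 or without mocetinostat replicate 3. *DNAJA3*, a DNAJ of the matrix, was at 110, 121, and 125 CPM with DMSO and at 68.8, 75.6, and 78.7 CPM with mocetinostat and fell by 0.68 on the log2 scale. Of a separate list of 8 exchange factors and mitochondrial partners, 5 fell and 0 rose (3 fell and 2 rose with *GAPDH* scaling), among them the protease genes *CLPX*, a DRG (81.5 ± 3.03 against 36.3 ± 5.86 CPM, SD, n = 3), and *LONP1* (−0.78). With TMM scaling 31.4% of all genes tested fell and 32.9% rose. The mRNAs encoded by mitochondrial DNA took 2.86% to 3.03% of counts with DMSO and 3.27% to 3.42% with mocetinostat.

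In contrast to the lists of cytosol and mitochondria, 7 of 8 listed members of the ER lumen rose and 0 fell, with a median of 0.43. This list, too, was drawn up after the values were seen and may not hold every such member. *DNAJC16* (−0.31, adjusted P = 0.059) and *DNAJC25* (0.028, adjusted P = 0.92) were not on it. With TMM scaling 32.9% of all genes tested rose and 31.4% fell. With *GAPDH* scaling, which raises every gene, all 8 rose and the median was 0.96 against 0.53 for all genes tested, and in DESeq2 5 of the 8 passed. *HSP90B1* (GRP94, the HSP90 of the ER) was at 905, 934, and 957 CPM with DMSO and at 1263, 1140, and 1342 CPM with mocetinostat. All treated samples were higher (0.42 ± 0.067 SE, adjusted P = 7.64e-08). *DNAJB9* (ERdj4), a partner of BiP, was at 19.4, 19.4, and 20.3 CPM and at 35.7, 40.9, and 39.4 CPM (0.95 ± 0.17 SE, adjusted P = 7.46e-07). *DNAJB11* (ERdj3), another BiP partner, rose by 0.44, *DNAJC3* (p58IPK) by 0.30, and *DNAJC10* (ERdj5) by 0.23 on the log2 scale. *HSPA13* was the member that passed in neither direction (−0.098, adjusted P = 0.48).

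*DNAJC1* was the URG of this list. It encodes a DNAJ protein of the ER membrane whose J domain faces the lumen. *DNAJC1* was at 18.4, 21.0, and 20.5 CPM with DMSO and at 69.2, 82.4, and 62.6 CPM with mocetinostat, with every treated sample above every control sample (1.83 ± 0.14 SE, adjusted P = 9.83e-19). The 8 genes summed to 2226, 2241, and 2277 CPM with DMSO and to 3538, 3264, and 3603 CPM with mocetinostat. Among 8 other ER folding genes, *CALR* (0.37), *PDIA4* (0.53), and *SDF2L1* (0.70) rose, and 1 fell. The one that fell was *SERPINH1* (HSP47), the chaperone of collagen, from 210 ± 6.17 to 32.5 ± 3.29 CPM (SD, n = 3; log2 fold change −2.66, adjusted P = 1e-32).

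DNAJB12 and DNAJB14 sit in the ER membrane with their J domain in the cytosol, where they serve the breakdown of misfolded membrane proteins. *DNAJB12* was at 80.2, 91.6, and 90.0 CPM with DMSO and at 30.3, 35.3, and 36.1 CPM with mocetinostat. It was the lowest of the tested members (−1.39 ± 0.13 SE, adjusted P = 6.47e-15). *DNAJB14* was at 45.6, 36.9, and 37.6 CPM with DMSO and at 21.4, 16.1, and 20.7 CPM with mocetinostat (−1.01 ± 0.17 SE, adjusted P = 2.67e-07). Both were DRGs, although *DNAJB14* lay above −1 without DMSO replicate 1 or without mocetinostat replicate 2, and just above it with DESeq2's size factors (−0.99) or library size alone (−0.998).

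**Figure D4:**
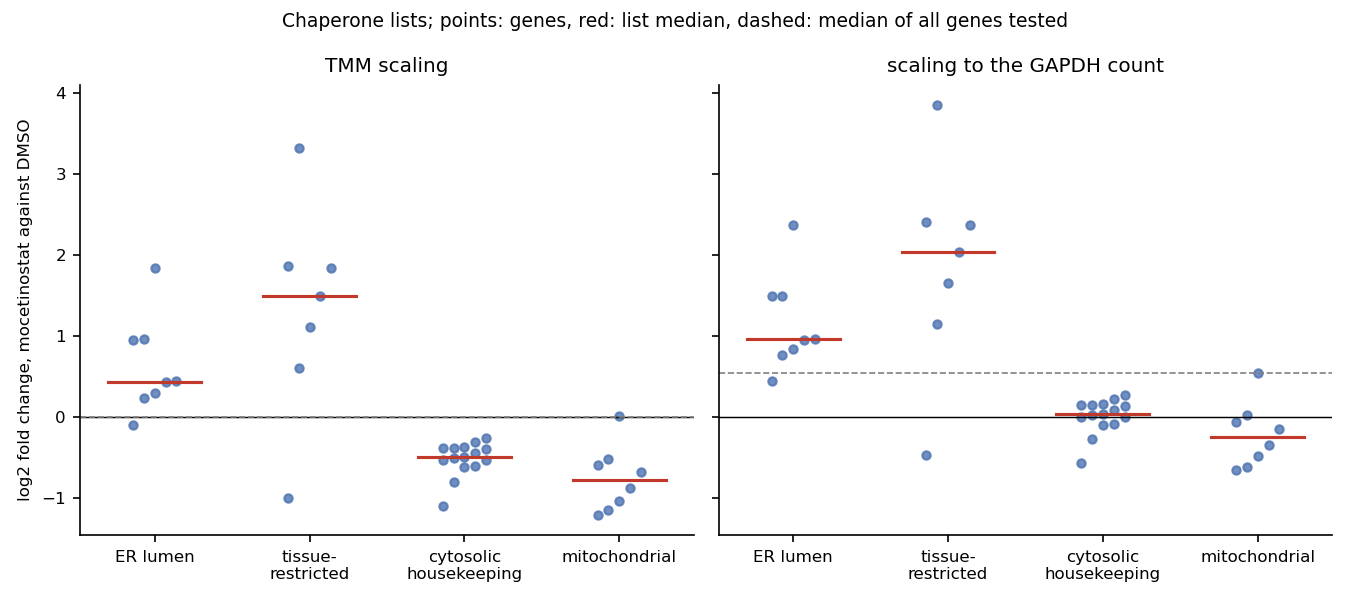
Log2 fold change (y axis) of the tested genes of 4 lists under TMM scaling (left) and under scaling to *GAPDH* (right). All 4 lists were chosen with earlier results of these data known, and the tissue-restricted list holds *HSPA2*. Points are genes, red lines list medians, and dashed lines the median of all genes tested, −0.0021 on the left and 0.53 on the right. Under both scalings the tissue-restricted median (1.495 and 2.04) lies above the dashed line and the cytosolic housekeeping median (−0.50 and 0.031) below it, while 1 point of the tissue-restricted list, *HSPA1L*, lies at −1.01 and −0.47.

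A list of 17 members known to be restricted to certain tissues, chiefly testis, muscle, and brain, had 7 tested genes. It was chosen with earlier results of these data known and holds *HSPA2*. Of the 7, 5 were URGs and 1 was a DRG, against 20.2% and 8.18% of all genes tested. The median log2 fold change of the 7 was 1.495. With *GAPDH* scaling, 6 rose and the median was 2.04. *HSPA2*, *HSPA12A*, and *HSPA4L* were among the 4656 genes with the highest mean level, of which 25.1% rose. That mean is over all 6 samples, so the increase of these genes itself raised their place. The 25.1% is thus no matched background for them. *DNAJC12*, *HSPA1L*, and *HSF4* were among the 4656 with the lowest mean level, of which 45.2% rose. The 17 genes summed to 139 to 143 CPM with DMSO and to 753 to 769 CPM with mocetinostat, of which *HSPA2* made up 52.2 ± 2.90 and 521 ± 8.15 CPM (SD, n = 3). Markers of male germ cells stayed near 0 in both groups, with sums over 7 genes of 0.147 to 0.625 CPM and of 0 to 1.66 CPM, and 3 of them were at 0 in all samples. The epithelial markers *KRT8*, *KRT18*, *EPCAM*, and *CDH1* summed to 900 to 1083 CPM with DMSO and to 1935 to 1987 CPM with mocetinostat. The endothelial markers summed to 4.98 to 7.08 CPM and to 16.1 to 22.8 CPM, and the fibroblast markers to 4501 to 5452 CPM and to 4024 to 4396 CPM. Most of the fibroblast sum was *COL1A1* (means of 4544 and 3932 CPM), and its members differed in direction. *COL1A1* and *COL3A1* fell, the latter as a DRG. *COL1A2* (means of 2.51 and 8.78 CPM) and *PDGFRA* (0.885 and 13.6 CPM) were URGs, and *FAP* did not pass. The part of these markers was not tested.

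*DNAJC6* (auxilin), which uncoats clathrin vesicles in neurons, was at 13.5, 12.7, and 13.6 CPM with DMSO and at 45.4, 50.2, and 47.7 CPM with mocetinostat. The groups do not overlap (1.83 ± 0.17 SE, adjusted P = 1.23e-15). *DNAJC12*, a partner of the aromatic amino acid hydroxylases, had 34, 13, and 17 reads in the DMSO samples, against 51, 9, and 16 in the mocetinostat samples, which is 2.76 ± 0.289 and 7.44 ± 2.37 CPM (SD, n = 3). It was a URG (1.49 ± 0.37 SE, adjusted P = 3.33e-04) and did not pass without mocetinostat replicate 1 (1.13, adjusted P = 0.051). *HSF4*, which acts in the lens, was at 2.90 ± 0.540 and 4.40 ± 2.02 CPM (SD, n = 3; adjusted P = 0.22).

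All 3 tested *DNAJA* genes fell, with a median of −0.50 (0.031 with *GAPDH* scaling, where 0 passed in either direction). *DNAJA1*, a partner of HSPA8, was at 466, 449, and 457 CPM with DMSO and at 315, 325, and 332 CPM with mocetinostat (−0.50 ± 0.076 SE, adjusted P = 3.02e-08). Of 9 *DNAJB* genes 4 rose and 3 fell, and of 25 *DNAJC* genes 7 rose and 9 fell. With 44.4% and 28% that rose and 33.3% and 36% that fell, these groups lay near the 32.9% and 31.4% of all genes tested. The highest of the *DNAJB* genes was *DNAJB5*, at 14.7, 15.8, and 20.2 CPM with DMSO and at 44.01, 40.3, and 37.7 CPM with mocetinostat (1.29 ± 0.17 SE, adjusted P = 6.94e-10). *DNAJB2*, a DNAJ with ubiquitin-binding motifs found mainly in neurons, rose by 0.79 on the log2 scale.

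*DNAJB1* (HSP40), the stress-inducible partner of HSPA1A, was at 222, 238, and 270 CPM with DMSO and at 226, 226, and 225 CPM with mocetinostat, with overlapping groups (−0.11 ± 0.085 SE, adjusted P = 0.26). Without DMSO replicate 1 it passed, at −0.19 (adjusted P = 0.021). *DNAJC7*, which links HSP70 and HSP90, was a DRG at 142, 124, and 133 CPM with DMSO and at 63.2, 57.6, and 64.2 CPM with mocetinostat (−1.10 ± 0.11 SE, adjusted P = 3.21e-14). The remaining URGs of the *DNAJC* group had few reads, and both were abundant enough to be tested only because of the mocetinostat samples, where they are high, so their calls are conditional on the increase. *DNAJC22* had the highest value of the group (2.56 ± 0.60 SE, adjusted P = 1.6e-04) on 15, 0, and 2 reads in the DMSO samples, against 16, 14, and 6 in the mocetinostat samples. Without DMSO replicate 1 the value was 4.42, and with counts thinned to the smallest library *DNAJC22* and *DNAJC28* were too low to be tested. *DNAJC28* had 27, 4, and 9 reads in the DMSO samples, against 23, 6, and 15 in the mocetinostat samples (1.53 ± 0.47 SE, adjusted P = 0.0035).

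HSF1 is the factor that drives the heat shock response. *HSF1* was at 90.7, 131, and 112 CPM with DMSO and at 52.7, 53.9, and 65.9 CPM with mocetinostat, with no overlap (−0.95 ± 0.12 SE, adjusted P = 3.86e-10). *HSF2*, which acts in development and forms trimers with HSF1, was at 31.9, 34.4, and 29.6 CPM and at 37.9, 31.0, and 33.2 CPM, with overlapping groups (0.12 ± 0.15 SE, adjusted P = 0.51). Of 18 tested genes from a list of 20 known HSF1 targets, 12 fell and 1 rose, with a median of −0.36, and with *GAPDH* scaling 4 fell and 6 rose, with a median of 0.17. The one that rose with TMM scaling was *HSPA4L*, and those that fell included *HSPH1*, *HSPD1*, and *AHSA1* (−0.89), whose protein stimulates the ATPase of HSP90. *HSPA1A*, *DNAJB1*, *HSPB1*, and *BAG3* did not pass. Of the 18 tested targets, 17 were among the 4656 genes with the highest mean level, of which 50% fell and 25.1% rose with TMM scaling.

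Small HSPs hold unfolded proteins in a soluble state. *HSPB1* (HSP27) was at 155, 181, and 186 CPM with DMSO and at 148, 170, and 146 CPM with mocetinostat, and the groups overlap (−0.18 ± 0.094 SE, adjusted P = 0.092). It passed without DMSO replicate 1 (−0.28, adjusted P = 0.0024) or without mocetinostat replicate 2 (−0.26, adjusted P = 0.027). *HSPB8*, which works with BAG3 in the removal of damaged proteins, was at 23.3, 21.2, and 19.2 CPM and at 15.5, 11.2, and 19.1 CPM (−0.45 ± 0.20 SE, adjusted P = 0.044). Without DMSO replicate 1 or 2, or without mocetinostat replicate 1 or 2, *HSPB8* did not pass, with the highest adjusted P value of these at 0.131. *HSPB11*, which is part of intraflagellar transport despite its name, was at 19.4, 22.3, and 18.7 CPM and at 26.4, 18.0, and 27.4 CPM, with overlapping groups and the highest value of the group (0.30, adjusted P = 0.16).

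BAG proteins release the client from HSP70. Of 6 *BAG* genes, *BAG2*, *BAG5*, and *BAG6* fell and 0 rose, with a median of −0.36 (0.17 with *GAPDH* scaling, where 2 rose). With TMM scaling 31.4% of all genes tested fell and 32.9% rose. *BAG2*, the lowest, was at 57.0, 52.7, and 56.6 CPM with DMSO and at 37.9, 39.0, and 39.0 CPM with mocetinostat. It fell by 0.53 on the log2 scale, but 41.9% of its windows are shared with *RAB23* on the opposite strand. How strand was treated in counting is not given in the sources used here. *BAG3*, the stress-inducible member, was at 115, 147, and 147 CPM with DMSO and at 144, 123, and 130 CPM with mocetinostat, with overlapping groups (−0.023 ± 0.10 SE, adjusted P = 0.85).

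Beyond these families, 16 co-chaperones of HSP90 and HSP70 were examined, of which 10 fell and 1 rose (6 rose and 1 fell with *GAPDH* scaling). The one that rose was *FKBP5* (FKBP51), a glucocorticoid-induced co-chaperone of steroid receptors, from 56.8 ± 5.71 to 160 ± 9.30 CPM (SD, n = 3; log2 fold change 1.49, adjusted P = 1.25e-20). Its paralog *FKBP4* (FKBP52) fell by 0.65. Of the 16 co-chaperones, 15 were among the 4656 genes with the highest mean level, of which 50% fell and 25.1% rose with TMM scaling. Of the 6 genes of prefoldin, which passes actin and tubulin to TRiC, 4 fell and 0 rose, with *VBP1* as the DRG (−1.23, adjusted P = 1.62e-10). Prefoldin with *GAPDH* scaling had 1 that rose and 1 that fell. With TMM scaling 31.4% of all genes tested fell and 32.9% rose. Of the 6 prefoldin genes, 4 were among the 4656 genes with the highest mean level.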

How the data were processed

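RNA-seq was performed on 6 samples of the TC28a2 cell line, 3 treated with DMSO and 3 with mocetinostat, and groups were taken from the sample labels. Per the labels and the study's methods, the authors depleted ribosomal RNA, aligned 100-base single reads to GRCh38 with STAR 2.6.1d, and deposited raw gene counts from featureCounts 1.6.4 (Ensembl build 98). How strand and multiply mapped reads were handled is not given in the sources used here. Library totals were 1619344 to 11031132 counts, and the deepest library was DMSO replicate 1 and the shallowest mocetinostat replicate 2. Low genes are therefore less precise with mocetinostat. The paper describes independent experiments, and the labels give no batch.

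Counts were fitted for all genes with edgeR 4.0.16 (quasi-likelihood test, TMM factors, filterByExpr with a minimum count of 10) in R 4.3.3, with Benjamini-Hochberg adjustment over the 13966 genes kept. Simulated data for this comparison had 200 changed genes, all with large changes. Of 13583 genes tested there, it recovered 99.5% of 194 changed genes and called 5 unchanged genes. In the real data 4597 genes rose and 4388 fell, many by small amounts. The simulation therefore does not show how scaling or small changes fare here. CPM values were computed here from the deposited counts. Same-numbered samples did not deviate together (correlations of −0.016 to 0.012), so no pairing was used. Members and lists were chosen with earlier results of these data known. Members named with values were a preset core list, the highest and lowest of each family, and every URG and DRG, the latter with CPM per sample where a group mean reached 10 CPM. *HSPA4*, *HSPA13*, *DNAJA3*, *DNAJB2*, *DNAJB9*, *DNAJB11*, *DNAJC3*, *DNAJC10*, *HSPA6*, *BAG5*, *BAG6*, and some listed partners (*AHSA1*, *LONP1*, *FKBP4*, *CALR*, *PDIA4*, *SDF2L1*) were named after their values were seen. Gene positions and lengths come from GENCODE release 44. Alternatives were DESeq2 1.42.0, other scalings, no filter, glmTreat, a replicate block, thinning, leaving out each sample, and, chosen after seeing the data, summing *HSPA1A* with *HSPA1B* and using canonical transcript lengths.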

Additional observations from a re-analysis of the deposited data

How the results depend on the processing

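Depth limits the genes of few reads, since the smallest library held 1619344 counts. Over 48 named genes and their alternatives, 597 of 668 values kept their direction and their side of the adjusted P threshold of 0.05. Another 36 no longer passed that threshold, 11 newly passed it, and 24 turned direction. The size limit for URGs and DRGs was not part of this count. *DNAJB12* with *GAPDH* scaling (−0.85) thus counted as kept, although it was no longer a DRG. With glmTreat, genes that were neither URGs nor DRGs in the main fit, such as *BAG2*, counted as kept without passing. Scaling to *GAPDH* turned *BAG2* (0.0082), *BAG3* (0.50), *CCT8* (0.27), *DNAJA1* (0.031), *DNAJA2* (0.13), *DNAJB1* (0.42), *HSP90AA1* (0.14), *HSPA1B* (0.20), *HSPA8* (0.15), *HSPB1* (0.35), *HSPB8* (0.087), and *TCP1* (0.22 on the log2 scale). By construction it adds the fall of *GAPDH* to every gene. It left 0 members downregulated, and 34 rose and 11 fell, while of all 13966 genes tested 7710 rose and 1371 fell. Without the expression filter *TRAP1* (−0.24), *HSF2* (−0.13), and *HSPA1A* (−0.18) turned. *HSPA1A* also turned when summed with *HSPA1B* (−0.11), *BAG3* when thinned (0.023), and *TRAP1* in DESeq2 (−0.023). The cause was not tested. The fit without the expression filter gave 8 URGs and 13 DRGs among 86 members tested. Testing against a log2 fold change of 1 (glmTreat), a stricter hypothesis, left 5 members upregulated and 1 downregulated. DESeq2 gave 9 URGs and 8 DRGs, and its size factors or library size alone gave 9 and 7. Thinned to the smallest library, 8 were URGs and 6 were DRGs of 72 tested. Of these 8 URGs, 6 were URGs in the main fit, and *DNAJB9* and *HSPA5* were gained. *DNAJC12*, *DNAJC22*, and *DNAJC28* were not tested there.

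Without 1 sample at a time, 9 members were upregulated in each case, 7 to 8 were downregulated, 13 to 16 rose, and 35 to 41 fell. The 9 were the same members except without mocetinostat replicate 1, where *DNAJC12* was lost and *DNAJB9* gained. *HSF1* became a DRG without DMSO replicate 1 or without mocetinostat replicate 3. Genes near 0 turned direction among the fits without 1 sample. The ranges were −0.15 to 0.017 for *BAG3*, −0.034 to 0.14 for *HSPA1A*, and −0.067 to 0.046 for *TRAP1*. With the replicate number as a block 9 members were upregulated, 8 downregulated, 16 rose, and 38 fell, the lost DRG being *HSPA1L*. *HSPA2* made up a mean of 10.2% of the HSP70 genes with mocetinostat per kilobase of exon, 11.8% per kilobase of canonical transcript, and 11.2% with *HSPA1A* and *HSPA1B* left out, which follows from the lengths and genes used. Length cancels from the change in the ratio of *HSPA2* to *HSPA8* (3.71 on the log2 scale), so another length is no check of it.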

Other observations

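Of the 91 rows, 14 were not tested, and 9 never had more than 3 counts. *DNAJA4*, *DNAJB3*, *HSPB2*, *HSPB3*, and *HSPB7* were listed at 0 in all samples. The reads that follow come from libraries of unequal depth, so mean CPM is given beside them. *DNAJC15*, a DNAJ of mitochondria, had 19, 5, and 4 reads in the DMSO samples, against 12, 1, and 5 in the mocetinostat samples. Its means were 1.12 and 1.69 CPM. *HSPB6* (HSP20), a small HSP of muscle, had 18, 7, and 11 reads in the DMSO samples, against 7, 2, and 5 in the mocetinostat samples. Its mean was 1.57 CPM in each group. *HSPA12B*, the endothelial relative of *HSPA12A*, had 0, 3, and 0 reads in the DMSO samples, against 5, 0, and 1 in the mocetinostat samples. Its means were 0.208 and 0.469 CPM. *DNAJB13* had 3, 0, and 4 counts in each group, with means of 0.287 CPM with DMSO and 0.751 CPM with mocetinostat.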
